A study of Mus musculus with 32 samples.

Results

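Transcript levels of 32 genes of the G2 phase and mitosis were followed in mouse embryonic stem cells that had lost CTCF or RAD21, or carried a hairpin against Chd4. The genes were taken by name from a list of cyclins, mitotic kinases, checkpoint proteins, kinetochore and spindle proteins. The list uses no measured value, but it was drawn up with earlier results of these data known. All 32 were found in each of 5 deposited tables, which list between 14267 and 16381 genes, and all 32 passed the filter on low values in every table.

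These genes are the transcription programme of late interphase and mitosis. Cyclins A and B activate the kinase CDK1 for entry into mitosis, the Polo and Aurora kinases build the spindle, and the spindle checkpoint holds back the ubiquitin ligase APC/C, with its activator CDC20, until every kinetochore is attached. The transcripts are low in G1 and accumulate towards mitosis. That rhythm is set at their promoters by NF-Y, which binds CCAAT boxes, and by the DREAM and B-MYB complexes, which act at an element called the CHR. Cohesin, of which RAD21 is a subunit, holds sister chromatids together until anaphase, and together with CTCF it also forms chromatin loops in interphase.

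The libraries came from the E14 line, and each of 16 groups had 2 libraries. RAD21 AID cells, in which an auxin-inducible degron marks RAD21 for destruction, received 1 uM of the auxin analogue 5-Ph-IAA for 0, 12 or 24 h. CTCF AID cells carried the same kind of tag on CTCF and received 500 uM of indole-3-acetic acid (IAA) for 0, 12 or 24 h. A further 4 libraries of CTCF AID cells were labelled as a serum condition with 0 or 12 h of IAA, although the growth protocol given for every sample describes a serum-free medium with LIF, PD0325901 and CHIR99021. The remaining groups were all CTCF AID cells as well. In 2 of them the cells carried a control hairpin (shctrl) or a hairpin against Chd4 (shChd4), the remodelling ATPase of the NuRD complex. The last 6 groups overexpressed a control (oectrl), wild-type CTCF (oeCTCFwt) or mutated CTCF (oeCTCFmut), each with and without IAA. The mutation is not named in the labels. In 4 overexpression libraries, titles and treatment labels do not match: oeCTCFmut is labelled as treated for 12 h, and the wild-type group titled with IAA is labelled as untreated. Titles were followed here. No group analysed here received auxin without a degron, so exposure to auxin and loss of the protein cannot be told apart. The labels do not say whether the 2 libraries of a group came from separate cultures, so the p-values measure the spread between libraries, which may be technical.

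Promoter sequences are shown first because the members share promoter elements that the list did not use. RefSeq promoters (GRCm38.p6) were matched by symbol for 27 of the 32 genes, and Ccna2, Cdc25c, Aurkb, Kif20a and Tpx2 had no match. In the 250 bases before the annotated start, CCAAT was found on either strand in 24 of 27 promoters (88.9%). The same letters were present in 34.5% of 27025 promoters of that length, and in 37.7% of 10338 promoters of genes tested in the RAD21 AID table. The CHR letters TTTGAA were found on either strand in 9 of 27 members (33.3%), against 16.3% of all promoters and 10.4% of tested genes. All 9 of these also held CCAAT, a combination present in 5.73% of all promoters and 4.24% of tested genes. No CHR match overlapped a CCAAT match in the members. Birc5, Ndc80 and Nusap1 had neither. A match is a run of letters and not evidence that a factor binds there.

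The 5 sequences below belong to the genes the results turn on, read from 5′ to 3′ along the gene, with CCAAT or ATTGG and TTTGAA or TTCAAA in capitals. They are those of Cdc20 (chr4:118437344-118437593, minus strand), Cdk1 (chr10:69352913-69353162, minus strand), Ccnb2 (chr9:70421555-70421804, minus strand), Cenpe (chr3:135212313-135212562, plus strand) and Hmmr (chr11:40733438-40733687, minus strand).
Cdc20: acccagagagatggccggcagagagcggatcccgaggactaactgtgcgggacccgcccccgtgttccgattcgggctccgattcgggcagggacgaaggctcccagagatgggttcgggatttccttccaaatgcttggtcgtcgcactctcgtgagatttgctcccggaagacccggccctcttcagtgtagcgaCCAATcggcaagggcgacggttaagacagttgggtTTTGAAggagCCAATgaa
Cdk1: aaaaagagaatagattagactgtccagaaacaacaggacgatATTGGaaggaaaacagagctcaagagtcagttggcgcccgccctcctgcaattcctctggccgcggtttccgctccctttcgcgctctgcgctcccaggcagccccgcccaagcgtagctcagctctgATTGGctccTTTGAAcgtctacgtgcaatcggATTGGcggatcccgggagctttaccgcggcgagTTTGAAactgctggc
Ccnb2: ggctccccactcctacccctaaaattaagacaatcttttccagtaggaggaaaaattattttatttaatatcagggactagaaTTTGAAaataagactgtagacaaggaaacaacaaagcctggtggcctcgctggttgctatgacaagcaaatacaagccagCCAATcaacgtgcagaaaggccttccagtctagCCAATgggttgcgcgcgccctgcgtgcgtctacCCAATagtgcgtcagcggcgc
Cenpe: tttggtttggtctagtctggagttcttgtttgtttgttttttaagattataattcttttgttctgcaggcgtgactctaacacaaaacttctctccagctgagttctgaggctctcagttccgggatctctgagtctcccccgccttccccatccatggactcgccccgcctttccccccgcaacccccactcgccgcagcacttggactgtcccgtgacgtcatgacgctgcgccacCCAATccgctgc
Hmmr: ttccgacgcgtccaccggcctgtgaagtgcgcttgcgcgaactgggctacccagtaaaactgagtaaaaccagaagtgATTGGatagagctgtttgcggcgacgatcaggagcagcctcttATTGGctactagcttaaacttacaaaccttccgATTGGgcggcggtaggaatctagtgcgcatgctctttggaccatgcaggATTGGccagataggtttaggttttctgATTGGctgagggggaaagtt
The Cdc20, Cdk1 and Ccnb2 windows hold both elements, with 1, 2 and 1 CHR matches and 2, 3 and 3 CCAAT matches. Cenpe and Hmmr, which were lowest at the time of RAD21 loss when Cdc20 was highest, have 0 CHR matches and 1 and 5 CCAAT matches. Ndc80, also lowest at that time, has 0 of both. Bub1b, Cdca8, Nusap1, Aurka and Plk1, which rose at that time, have 0 CHR matches too. Ube2c and Top2a, which also rose, have 1 and 2. A relation between these letters and the direction of change was not tested.

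All values are normalised counts from the deposited tables, with n = 2 for every group. A library summed to between 15364584 and 19642332. Differences are on the log2(value + 1) scale from a limma fit. Genes with a p under 0.05 after Benjamini-Hochberg adjustment across their table are those called. The hairpin against Chd4 lowered Chd4 from 9923 and 9526 to 3379 and 3729 (log2 difference -1.45, SE 0.06, limma adjusted p 4.95e-06). Without IAA, Ctcf was 1.15 higher in oeCTCFwt and 1.19 higher in oeCTCFmut than in oectrl (limma adjusted p 2.49e-08 and 1.7e-08). The degrons act on protein, so their mRNA is no check of the labels: Rad21 was not called in RAD21 AID cells at 12 h or 24 h (limma adjusted p 0.265 and 0.428), and Ctcf was 0.29 higher after 12 h in CTCF AID cells (limma adjusted p 0.00834). The 8 embryonic stem cell markers examined were listed in every table, and their summed level lay between 57280 and 127614 normalised counts per library. Fibroblast markers were listed for at most 4 of 6 genes and summed to at most 702.2. Untreated RAD21 AID cells expressed the 32 genes at levels per kilobase of merged exons that ranged from 98.9 for Cdc25c, the phosphatase that activates CDK1, to 2461 for Cks2, a small CDK-binding subunit. Cdc20 (2157), Top2a (2009) and Ccnb2 (2000) followed Cks2 in that order.

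After 12 h of RAD21 degradation, 11 of the 32 genes rose and none fell. The rises were small, with log2 differences from 0.10 to 0.34, and they spread over checkpoint, kinase, spindle and chromatin genes. They make up 34.4% of the members, beside 13.0% of all 13738 genes called in either direction, 6.66% higher and 6.35% lower. The members' median was 0.10, and that of all genes -0.00. In bulk libraries, a larger share of cells in G2 or mitosis and more RNA per such cell cannot be told apart.

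Cdc20, the activator of the APC/C, changed most. It stood at 4022 and 4037 normalised counts at 0 h, 5035 and 5178 at 12 h, and 3829 and 3815 at 24 h. Both 12 h libraries lay above the other 4, a rise of 26.7% (log2 difference 0.34, SE 0.03, limma adjusted p 0.00194). Bub1b, which encodes the checkpoint kinase-like protein BUBR1, went from 4940 and 4692 to 5722 and 5729, and was back at 4767 and 5052 at 24 h. Its log2 difference at 12 h was 0.25 (SE 0.04, limma adjusted p 0.0122). Cdca8, the borealin subunit of the chromosomal passenger complex, rose from 2481 and 2588 to 3044 and 2993 (log2 difference 0.25, SE 0.04, limma adjusted p 0.014). Nusap1, a microtubule-bundling spindle protein, rose from 2634 and 2573 to 3057 and 3139 (log2 difference 0.25, SE 0.04, limma adjusted p 0.014). In each of these genes the 2 groups did not overlap, which their choice by large called differences makes likely. The share of all genes without overlap was not determined. Nusap1 shares 172 exonic bases with Oip5 on the opposite strand and Cdca8 shares 232 with another gene, and the use of strand in counting is not given in the sources used here.

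The other 7 genes that rose were Aurka, Cdk1, Ube2c, Plk1, Kif20a, Tpx2 and Top2a, with log2 differences from 0.10 to 0.22. Kif20a shares 1271 exonic bases with Cdc23 on the opposite strand. Read by role, 3 of 5 checkpoint and APC/C genes rose, 3 of 6 kinase and passenger complex genes, 3 of 8 spindle motor and microtubule genes, 1 of 7 genes of the CDK1 engine, 1 of 2 mitotic chromatin genes and 0 of 4 centromere and kinetochore genes. Cyclins were not among them: Ccnb1, the main mitotic cyclin, was at 7502 and 7508 at 0 h and 7437 and 7688 at 12 h, and Ccna2, Ccnb2 and Ccnf were not called. Replicates of some members differed widely, as for Ccnf, at 4099 and 4932 at 0 h.

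The count of 11 depended on having all 4 libraries. It was 3 without replicate 1 of 12 h, 1 without replicate 2 of 12 h and 2 without either library of 0 h, while the share of all genes called fell to between 4.03% and 4.54%. Cdc20 kept its call in each of the 4 fits that left out a library, with log2 differences from 0.32 to 0.36. Bub1b kept it only without replicate 1 of 0 h, Cdca8 only without replicate 2 of 0 h, and Nusap1 lost it in all 4. Under quantile normalisation 8 members were called higher and 1 lower.

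**Figure D1:**
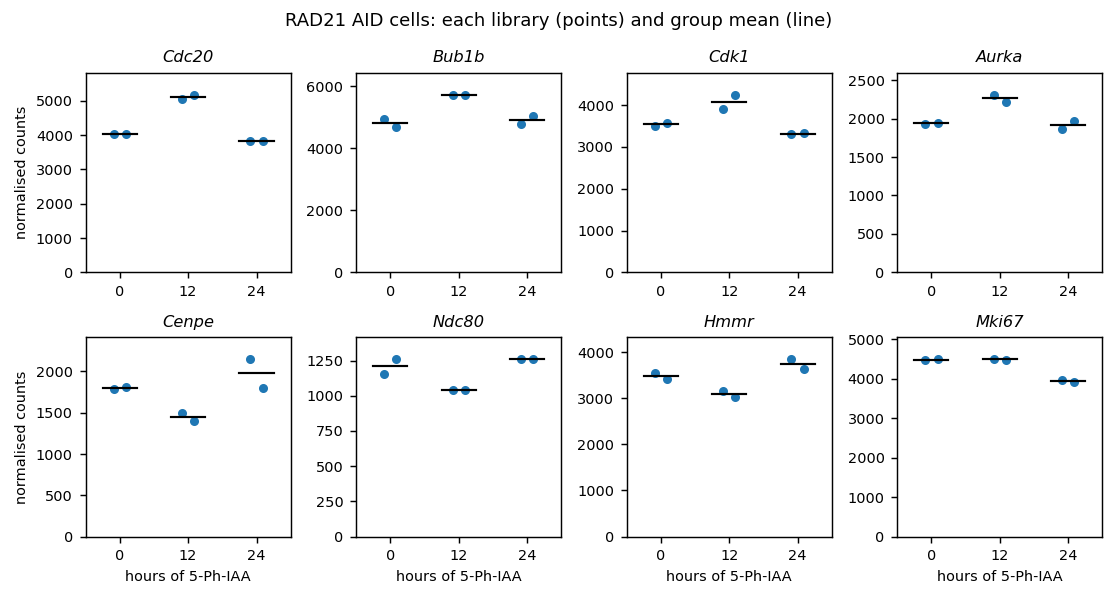
Normalised counts (y axis) of 8 genes in RAD21 AID cells against hours of 5-Ph-IAA (x axis). Points are the 2 libraries of a group and lines their mean. Cdc20, Bub1b, Cdk1 and Aurka were highest at 12 h, Cenpe, Ndc80 and Hmmr were lowest at 12 h, and Mki67 was lowest at 24 h.

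By 24 h of RAD21 degradation most of the rise was gone. Against 0 h, 2 genes were higher and 1 lower, that is 9.38% of the members beside 13.7% of all genes (6.54% higher and 7.16% lower), and the median difference was -0.01. Nusap1 was still higher, at 3020 and 2879 (log2 difference 0.18, SE 0.04, limma adjusted p 0.0368). Ckap2, a microtubule-associated protein of the spindle, was at 3916 and 3659 against 3174 and 3403 at 0 h (log2 difference 0.20, SE 0.05, limma adjusted p 0.0499). Mki67, which coats mitotic chromosomes and serves as a proliferation marker, fell from 4468 and 4491 to 3972 and 3902 (log2 difference -0.19, SE 0.03, limma adjusted p 0.012). Removing any of the 4 libraries removed the calls of Nusap1 and Ckap2. Mki67 stayed called only without replicate 1 of 24 h, so the count was 1 without that library and 0 without any of the others.

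Between 12 h and 24 h, 10 members fell and 3 rose, 40.6% of the members beside 15.9% of all genes (7.67% higher and 8.26% lower). This comparison shares its 12 h libraries with the one above, so that the fall of a gene from 12 h is not independent of its rise to 12 h. Cdc20 fell by 0.42 on the log2 scale (SE 0.03, limma adjusted p 0.000556). Cdk1 went from 3898 and 4251 to 3310 and 3330 (log2 difference -0.29, SE 0.05, limma adjusted p 0.0089). Ube2c, the ubiquitin-conjugating enzyme of the APC/C, went from 4243 and 4296 to 3682 and 3567 (log2 difference -0.24, SE 0.04, limma adjusted p 0.00662). Aurka, the spindle pole kinase, went from 2313 and 2218 to 1864 and 1974 (log2 difference -0.24, SE 0.05, limma adjusted p 0.0218). The other 6 that fell were Bub1b, Plk1, Kif20a, Mki67, Tpx2 and Top2a. Ube2c shares 592 exonic bases with Tnnc2 on the opposite strand.

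The 3 that rose between 12 h and 24 h were Cenpe, Ndc80 and Hmmr. Cenpe, a kinetochore motor that moves chromosomes to the spindle equator, was at 1783 and 1806 at 0 h, 1495 and 1394 at 12 h and 2154 and 1798 at 24 h. Ndc80, a microtubule-binding subunit of the outer kinetochore, was at 1157 and 1263, then 1040 and 1040, then 1259 and 1262. Hmmr, a spindle assembly protein, was at 3554 and 3408, then 3156 and 3030, then 3854 and 3630. For all 3 genes, both 12 h libraries lay below the other 4, a pattern favoured by picking them for their rise from 12 h. The log2 differences from 12 h to 24 h were 0.45 for Cenpe (SE 0.09, limma adjusted p 0.0169), 0.28 for Ndc80 (SE 0.06, limma adjusted p 0.029) and 0.27 for Hmmr (SE 0.05, limma adjusted p 0.0106). Their differences from 0 h to 12 h were -0.31, -0.22 and -0.17, none called (limma adjusted p 0.0603, 0.0686 and 0.0569).

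Without a library of either group the count from 12 h to 24 h was 6 and 8 for the 24 h replicates 1 and 2, and 5 and 4 for the 12 h replicates 1 and 2. Cdc20, Cdk1 and Ube2c kept their calls in all 4 of these fits. Ndc80 lost its call in all 4, Cenpe without either 12 h library, Hmmr without replicate 1 of 24 h or replicate 2 of 12 h, and Aurka in every fit but the one without replicate 2 of 24 h.

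Markers of other cell types also moved with RAD21 degradation, at low levels beside the stem cell markers, which summed to 105883 to 107454 normalised counts at 0 h, 101812 to 101938 at 12 h and 105254 to 105328 at 24 h. Primitive endoderm markers, 5 of 7 listed, summed to 111.3 to 124 at 0 h, 175.2 to 184.1 at 12 h and 155.5 to 175.2 at 24 h. Fibroblast markers, 2 of 6 listed, went from 34.55 to 34.62 at 0 h up to 66.5 to 110.9 at 24 h. Trophoblast markers, 2 of 6 listed, went from 864.1 to 960.8 down to 483.2 to 525.2. The part of these shifts in the members' changes was not tested.

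After loss of CTCF the members moved little as a group, and the change that stood out was a fall of Cdk1. At 12 h of IAA, 1 gene rose and 2 fell, 9.38% of the members beside 17.8% of all 13699 genes (9.39% higher and 8.40% lower). At 24 h, 1 rose and 5 fell, 18.8% of the members beside 22.5% of all genes (11.7% higher and 10.8% lower). The median difference was -0.01 at 12 h and -0.04 at 24 h. Quantile normalisation gave 0 higher and 2 lower at 12 h, and 0 higher and 8 lower at 24 h, with Racgap1 no longer called (limma adjusted p 0.216 and 0.143).

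Cdk1, the kinase at the centre of mitotic entry, stood at 4337 and 4100 normalised counts at 0 h, 3195 and 3265 at 12 h and 2774 and 2832 at 24 h. The 3 groups did not overlap, in a gene singled out for its large change. The log2 difference was -0.38 at 12 h (SE 0.05, limma adjusted p 0.00227) and -0.59 at 24 h (SE 0.05, limma adjusted p 0.000302), a level 33.5% below that of 0 h. Both calls held in each of the 4 fits that left out a library, with values from -0.43 to -0.34 at 12 h and from -0.63 to -0.55 at 24 h. Cdk1 shares no exonic base with another annotated gene. The step from 12 h to 24 h, of -0.20, was not called (limma adjusted p 0.142), and 0 of 32 members were called in that step, where 0.146% of all genes were. At an unadjusted p under 0.05 in limma the step had 4 members.

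The B-type cyclins that partner it were not called at 12 h. Ccnb1 was at 7554 and 7156 at 0 h, 7414 and 7530 at 12 h and 7588 and 7325 at 24 h, and these ranges overlap. Ccnb2, the second B-type cyclin, was at 1866 and 1862, then 1779 and 1628, then 1571 and 1625. It was called lower at 24 h only (log2 difference -0.22, SE 0.06, limma adjusted p 0.0406), and that its change differed between the times was not tested. Ube2c was lower at both times, from 3651 and 3582 to 3143 and 3269 at 12 h (log2 difference -0.17, SE 0.04, limma adjusted p 0.0352) and to 3275 and 3217 at 24 h (log2 difference -0.16, SE 0.04, limma adjusted p 0.043). Racgap1, a GTPase-activating protein of the central spindle, was higher at both, from 2789 and 2982 to 3224 and 3384 at 12 h (log2 difference 0.20, SE 0.05, limma adjusted p 0.0441) and to 3242 and 3348 at 24 h (log2 difference 0.19, SE 0.05, limma adjusted p 0.0402). Cenpe was at 2761 and 2754 at 0 h and at 2347 and 2392 at 24 h (log2 difference -0.22, SE 0.05, limma adjusted p 0.0274). Top2a, the topoisomerase that untangles sister chromatids, also fell at 24 h. Each of these calls other than those of Cdk1, with Top2a not examined, was lost when any of the 4 libraries of its comparison was left out, which left counts of 1 in each such fit at 12 h. At 24 h the count was 2 without either 24 h library and 1 without either 0 h library.

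Of the 11 genes that rose 12 h after RAD21 degradation, Cdk1 and Ube2c were called lower after 12 h of CTCF degradation and the other 9 were not called. Cdc20 was at 3459 and 3490 at 0 h, 3418 and 3494 at 12 h and 3302 and 3607 at 24 h after CTCF degradation, values that overlap. The differences at 12 h of IAA were -0.38 for Cdk1, -0.19 for Plk1, -0.17 for Ube2c, -0.06 for Nusap1, -0.03 for Bub1b and for Top2a, -0.01 for Aurka, Cdca8 and Cdc20, 0.04 for Kif20a and 0.06 for Tpx2. Trophoblast markers, 3 of 6 listed, summed to 1357 to 1388 at 0 h and 1078 to 1165 at 12 h of IAA, and their part in the members' changes was not tested. The RAD21 and CTCF tables were normalised separately and hold different lines, agents and doses, so these differences between RAD21 and CTCF loss were not tested.

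In the serum condition, 7 members fell after 12 h of IAA and 1 rose, 25% of the 32 beside 17.0% of all 14494 genes (7.73% higher and 9.25% lower), and the median was -0.02 (0.02 after quantile normalisation). Ckap2 fell from 2449 and 2381 to 1761 and 1717 (log2 difference -0.47, SE 0.04, limma adjusted p 0.000454). Cenpf, a large kinetochore-associated protein, fell from 4283 and 4552 to 3562 and 3295 (log2 difference -0.37, SE 0.05, limma adjusted p 0.00259). Hmmr fell from 4155 and 4033 to 3158 and 3347 (log2 difference -0.33, SE 0.04, limma adjusted p 0.00162). Bub1b fell from 5340 and 5458 to 4397 and 4512 (log2 difference -0.28, SE 0.03, limma adjusted p 0.00106). Mki67, Cenpe and Kif11, a spindle motor, fell by 0.12 to 0.27 on the log2 scale. In none of the named genes did the groups overlap, which their choice by called differences makes likely.

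Bub1, the checkpoint kinase, was the member that rose in serum, from 2782 and 2834 to 3060 and 3246 (log2 difference 0.17, SE 0.04, limma adjusted p 0.0298), and lost its call when any library was left out. Ckap2, Cenpf, Hmmr and Bub1b kept theirs in all 4 such fits. The count of members was 5 without either 12 h library and 6 without either 0 h library. Cdk1 was at 3172 and 3216 without IAA and 3317 and 3482 with it, a difference of 0.09 that was not called (limma adjusted p 0.141). The 8 stem cell markers summed to 67832 to 68030 normalised counts without IAA and 57280 to 58213 with it. The part of that shift in the members' changes was not tested.

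In the overexpression table, Ccnb2 fell with IAA in all 3 backgrounds, and Nek2, a centrosome kinase, and Birc5, the survivin subunit of the passenger complex, rose in all 3. The share of all genes called in the same direction in all 3 backgrounds was not determined. Over the 5 IAA comparisons set out below, 15.6% of the members were called in the same direction in 3 or more, near the 14.4% of all genes. In control cells 3 members rose and 3 fell, 18.8% beside 25.3% of all 13938 genes (12.8% higher and 12.5% lower). With wild-type CTCF 5 rose and 3 fell, 25% beside 21.4% (11.1% higher and 10.3% lower). With mutated CTCF 2 rose and 2 fell, 12.5% beside 16.2% (8.31% higher and 7.92% lower). Quantile normalisation changed the wild-type split to 2 higher and 7 lower. Under it Birc5 was not called in control or wild-type cells (limma adjusted p 0.0606 and 0.0662), Nek2 not with mutated CTCF (0.0649) and Racgap1 not with wild-type CTCF (0.0569). Markers of other cell types moved with IAA in this table. Primitive endoderm markers, 5 of 7 listed, summed to 48.22 to 68.87 normalised counts in oectrl and 126.3 to 129.8 with IAA, to 69.77 to 102.8 and 72.96 to 81.64 in oeCTCFwt, and to 62.78 to 63.31 and 171.9 to 202.3 in oeCTCFmut. Trophoblast markers, 3 of 6 listed, summed to 1229 to 1441 over the 6 libraries without IAA and 1649 to 1823 with it. Stem cell markers went from 124253 to 125528 down to 118457 to 119167 in oectrl. The part of these shifts in the members' changes was not tested.

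Ccnb2 went from 2702 and 2683 to 2260 and 2150 in control cells (log2 difference -0.29, SE 0.04, limma adjusted p 0.000336). It went from 2803 and 2729 to 2154 and 2197 with wild-type CTCF (log2 difference -0.35, SE 0.04, limma adjusted p 0.000174). With mutated CTCF it went from 2332 and 2358 to 2037 and 2062 (log2 difference -0.19, SE 0.04, limma adjusted p 0.00637). By title, the 6 libraries with IAA all lay below the 6 without. Ccnb2 was singled out by its calls, and the share of all genes that separate this way was not determined. The libraries titled oeCTCFmut are labelled as treated, and their Ccnb2 was lower than in oectrl (log2 difference -0.20). The wild-type libraries titled with IAA are labelled as untreated. All 3 calls held in every fit that left out a library.

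Nek2 rose from 1749 and 1854 to 2154 and 2146 in control cells (log2 difference 0.26, SE 0.04, limma adjusted p 0.00134), by 0.16 with wild-type CTCF and by 0.15 with mutated CTCF (limma adjusted p 0.0193 and 0.0356). Birc5 rose by 0.18, 0.19 and 0.21 (limma adjusted p 0.0381, 0.0369 and 0.0259). Racgap1 rose by 0.15 in control cells and 0.14 with wild-type CTCF (limma adjusted p 0.0172 and 0.0304), and was 0.07 higher and not called with mutated CTCF. Cenpf fell in control cells by 0.13, Nusap1 fell by 0.17 and Mki67 rose by 0.12 with wild-type CTCF, and Aurkb fell by 0.14 with mutated CTCF. Kif20a was the other gene that rose with wild-type CTCF. Of the calls in this paragraph, Nek2 in control cells was the one that held in every fit without a library, Kif20a not being examined. The counts in those fits were 3 to 5 in control cells (3 without replicate 2 of oectrl with IAA or replicate 1 of oectrl), 4 or 5 with wild-type CTCF (4 without any library but replicate 1 of oeCTCFwt) and 1 to 3 with mutated CTCF (1 without any library but replicate 1 of oeCTCFmut with IAA).

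Bub1b differed between backgrounds. It fell from 5816 and 5814 to 4855 and 4843 in control cells (log2 difference -0.26, SE 0.03, limma adjusted p 0.000128) and from 5804 and 5633 to 4966 and 4971 with wild-type CTCF (log2 difference -0.20, SE 0.03, limma adjusted p 0.00101). With mutated CTCF it was at 5288 and 5048 without IAA and 5031 and 4983 with it (log2 difference -0.05, limma adjusted p 0.356). The IAA effect with mutated CTCF minus that in control cells was 0.22 (SE 0.04, limma adjusted p 0.0328), and Bub1b was the single member called in this test, beside 1.64% of all genes. The call was lost in 7 of the 8 fits that left out a library. The exception was the fit without replicate 1 of oeCTCFmut. Bub1b was lower with mutated CTCF before IAA (log2 difference against oectrl -0.17, SE 0.03, limma adjusted p 0.00969), and the libraries titled oeCTCFmut are the ones labelled as treated.

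For wild-type CTCF minus control, 0 of 32 members were called, beside 1.41% of all genes, and 2 had an unadjusted p under 0.05 in limma. Without IAA, wild-type CTCF against the control called 1 member, Mki67, beside 0.897% of all genes. It was at 5954 and 6146 in oectrl and 6790 and 6628 in oeCTCFwt (log2 difference 0.15, SE 0.03, limma adjusted p 0.0318), and the call was lost without any of the 4 libraries. Mutated CTCF against the control called 3, beside 5.55% of all genes. These were Mki67, higher at 6880 and 6903 (log2 difference 0.19, SE 0.03, limma adjusted p 0.00343), and Ccnb2 and Bub1b, both lower. In a fit of only these 2 groups none of the 3 was called (limma adjusted p 0.0602 for Mki67, 0.0858 for Ccnb2 and 0.0918 for Bub1b). Mki67 held without each library in turn, Ccnb2 was lost in all 4 fits, and Bub1b without replicate 2 of oeCTCFmut or replicate 1 of oectrl. The count was 1 without replicate 2 of oeCTCFmut and 2 in the other fits.

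Cdk1 was the largest change of the list after CTCF loss in the CTCF AID table, and its values in the other tables, looked up after that was seen, were not lower with IAA. It was at 3633 and 3731 in oectrl and 4020 and 3971 with IAA, at 3870 and 3528 in oeCTCFwt and 4323 and 3925 with IAA, and at 3738 and 3882 in oeCTCFmut and 4168 and 4147 with IAA. The differences of 0.12, 0.16 and 0.13 were not called (limma adjusted p 0.127, 0.0559 and 0.134). There were 5 comparisons of IAA: CTCF AID and serum at 12 h, and the 3 overexpression backgrounds. The wild-type group titled with IAA is labelled as untreated, so the labels do not give 12 h for every comparison. In all 5 comparisons, 5 members were positive (Birc5, Nek2, Ttk, Kif20a and Racgap1) and 5 negative (Ccnb2, Cdc25c, Aurkb, Bub1b and Ckap2). The other 22 were mixed. That is 15.6% of the members each way, near the 12.9% positive and 14.1% negative among the 12785 genes tested in all 5. Ccnb2, Bub1b, Birc5, Nek2 and Racgap1 were each called in 3 in 1 direction, 15.6% of the members beside 14.4% of all genes. None was called in all 5, beside 1.56% of all genes.

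**Figure D2:**
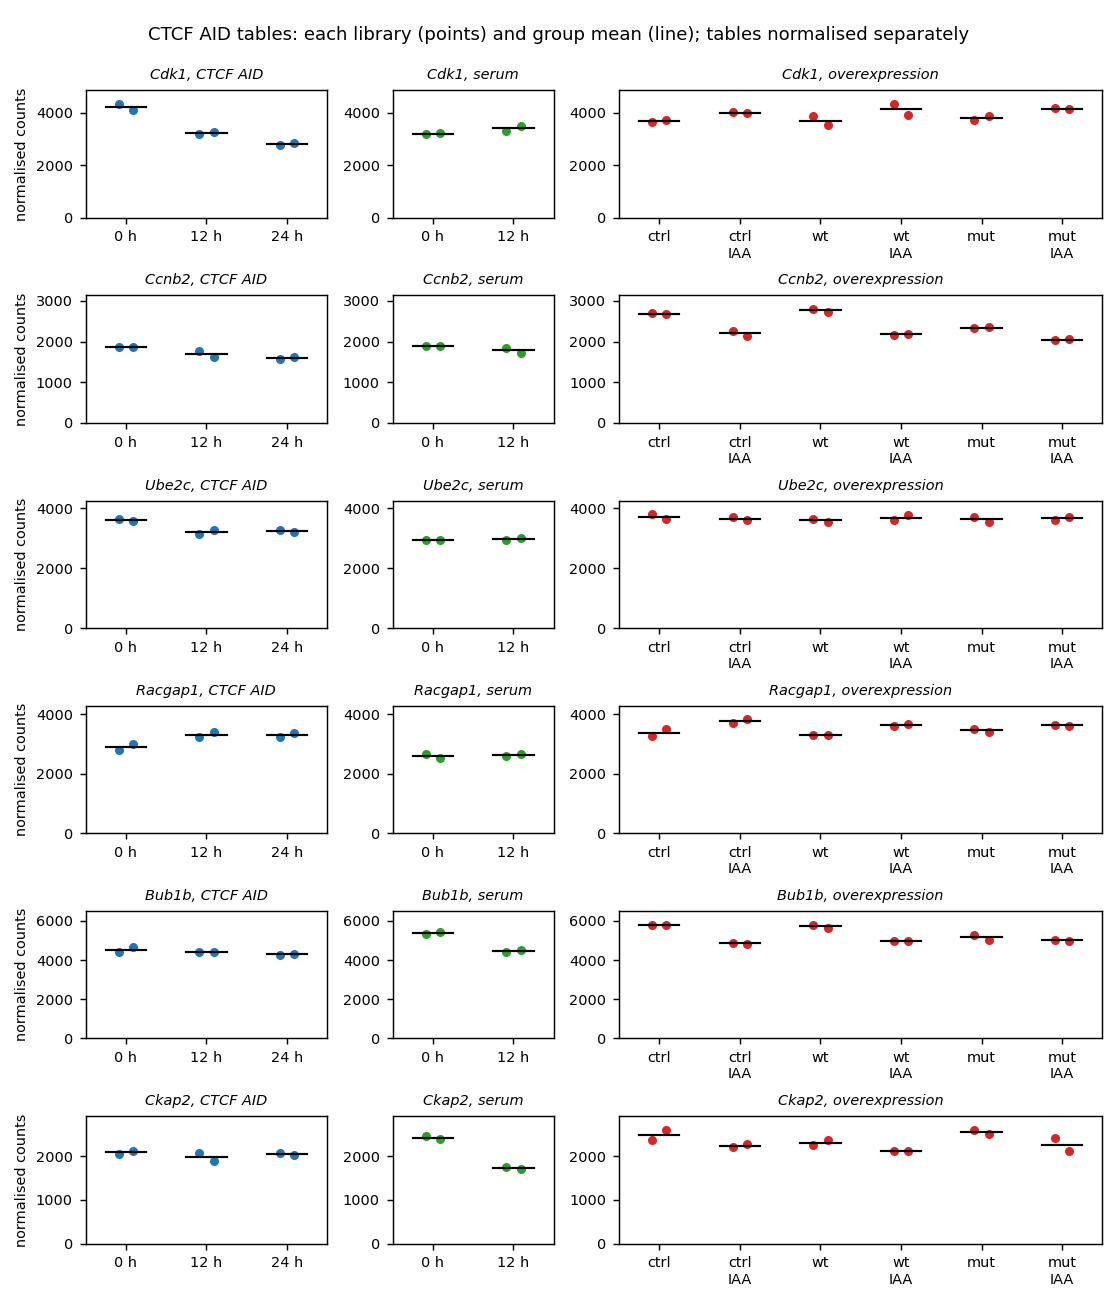
Normalised counts (y axis, from 0) of 6 genes in the CTCF AID, serum and overexpression tables, by hours of IAA or by background (x axis). Points are libraries and lines group means. Cdk1 fell from 4337 and 4100 to 2774 and 2832 in the CTCF AID table and not in the others, while Ccnb2 was lower with IAA in each overexpression background.

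**Figure D3:**
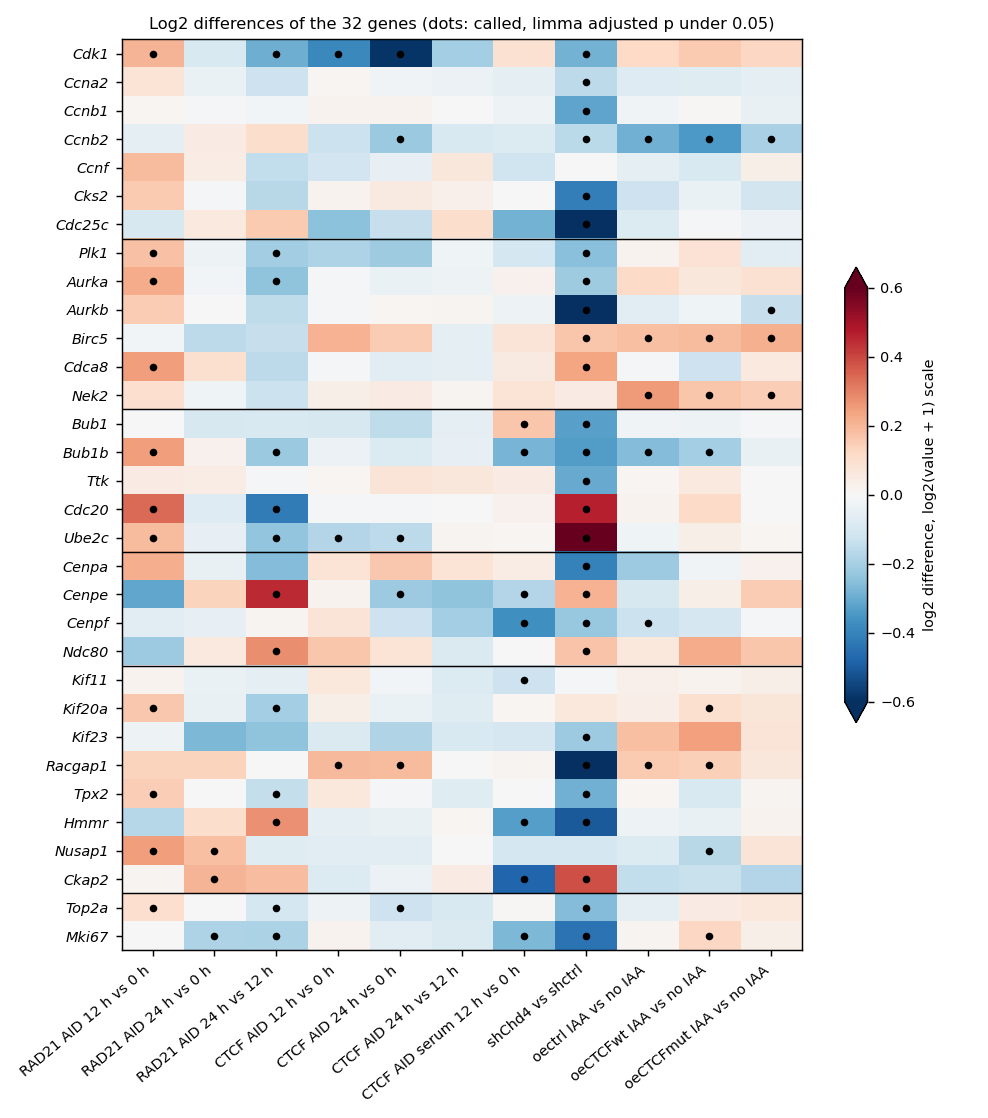
Log2 differences (colour, limited to -0.6 and 0.6) of the 32 genes (rows, grouped by role) in 11 comparisons (columns). Dots mark calls at a limma adjusted p under 0.05. The first column holds 11 rises and the shChd4 column 27 calls, and the column of CTCF AID 24 h against 12 h holds none.

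The hairpin against Chd4 gave the largest changes of the list, in both directions. Of the 32 genes, 20 fell and 7 rose, 84.4% of the members beside 67.4% of all 15499 genes. Among all genes 33.8% were lower and 33.5% higher, and the members' median was -0.22 (-0.11 after quantile normalisation, with 8 higher and 15 lower). The count was lower when any library was left out, as was the share of all genes called.

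In the CDK1 engine 6 of 7 genes fell, Ccnf being the exception. Cdc25c fell from 687.9 and 666.5 to 247.5 and 237.2 (log2 difference -1.48, SE 0.09, limma adjusted p 1.9e-05), and shares 623 exonic bases with Gm3550 on the opposite strand. Ccnb1 went from 7932 and 8045 to 6241 and 6577, and Cdk1 from 3607 and 3769 to 3002 and 3051. Ccna2, Ccnb2 and Cks2 were the others that fell. Aurkb, the kinase of the passenger complex, fell from 1666 and 1771 to 780.2 and 813.3 (log2 difference -1.11, SE 0.06, limma adjusted p 1.67e-05). Of its partners in the complex, Birc5 and Cdca8 rose, Cdca8 from 2108 and 2041 to 2405 and 2488 (log2 difference 0.24, SE 0.05, limma adjusted p 0.00554). Incenp, the remaining partner and not one of the 32 genes, had a difference of -0.17 and was not called (limma adjusted p 0.0939). Plk1 and Aurka fell and Nek2 was not called.

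Checkpoint and APC/C genes moved both ways. Bub1 and Ttk, which encode checkpoint kinases, and Bub1b, which encodes the kinase-like BUBR1, fell. Cdc20 and Ube2c, the activator and the conjugating enzyme of the APC/C, rose. Ube2c went from 2591 and 2581 to 4133 and 4121 (log2 difference 0.67, SE 0.04, limma adjusted p 2.62e-05) and Cdc20 from 2734 and 2729 to 3774 and 3768 (log2 difference 0.47, SE 0.04, limma adjusted p 0.000127). The replicates of both genes were close together and the groups far apart.

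Cenpa, the centromeric histone, and Cenpf fell, while Cenpe and Ndc80 rose. Racgap1 fell from 3378 and 3277 to 1982 and 2154 (log2 difference -0.69, SE 0.06, limma adjusted p 7.49e-05) and Hmmr from 4837 and 4769 to 3423 and 3353 (log2 difference -0.50, SE 0.04, limma adjusted p 8.35e-05). Ckap2 rose from 3294 and 3245 to 4339 and 4204 (log2 difference 0.39, SE 0.05, limma adjusted p 0.000321). Kif23 and Tpx2 fell, and Kif11, Kif20a and Nusap1 were not called. Mki67 and Top2a both fell. All 8 members given here with an adjusted p kept their calls in each of the 4 fits without a library.

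Markers of other cell types moved with the hairpin. The 8 stem cell markers summed to 123242 to 124942 normalised counts in shctrl and 77462 to 78745 in shChd4. Primitive endoderm markers, 6 of 7 listed, summed to 101.6 to 119.1 and 942.6 to 964.6, and most of the sum was Dab2, at 1.744 and 1.822 against 613 and 619.8. Sox17 and Gata4 were lower with the hairpin. Fibroblast markers, 4 of 6 listed, summed to 239.5 to 316 and 569.6 to 659.4, with Col1a2 and Postn at 0 in 1 shctrl library. Trophoblast markers, 3 of 6 listed, went from 1718 to 1748 down to 1208 to 1282. The part of these shifts in the members' changes was not tested.

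**Figure D4:**
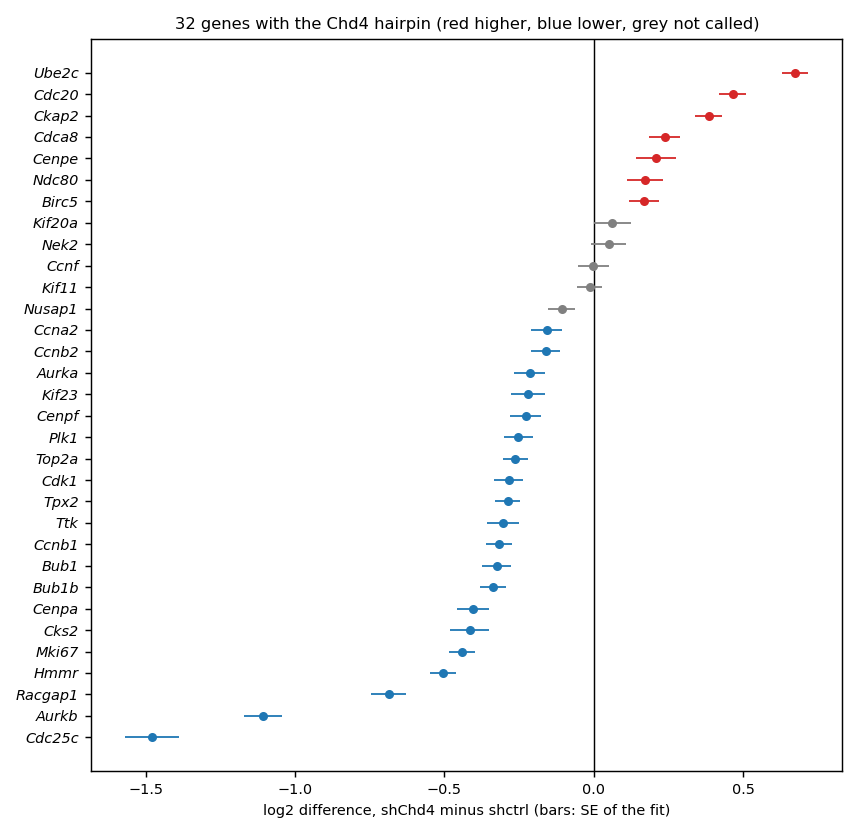
Log2 differences, shChd4 minus shctrl (x axis), of the 32 genes (y axis, sorted), with bars of 1 SE of the fit. Red genes were called higher, blue lower and grey not called. Cdc25c (-1.48) and Aurkb (-1.11) lie furthest to the left, and Ube2c (0.67) and Cdc20 (0.47) furthest to the right.

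Further genes of the cell cycle were read from lists that do not contain the members, chosen with earlier results of these data known. After 12 h of RAD21 degradation 6 of 50 further mitotic genes rose and 5 fell, beside 6.66% of all genes higher and 6.35% lower, with a median of 0.01. Bub3, a checkpoint protein, rose by 0.32 and Gtse1, a microtubule protein of G2, by 0.35, while Kif18a, a kinesin, fell by 0.27 (limma adjusted p 0.00602, 0.0218 and 0.0479). Of 23 regulators of G2/M transcription 4 rose and 1 fell in the same comparison, the latter being Foxm1, an activator of these genes, by 0.49 on the log2 scale (limma adjusted p 0.0418). E2f7, a repressor, rose by 0.63 (limma adjusted p 0.0283).

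Of 34 genes of G1/S and DNA replication, 7 rose and 2 fell after 12 h of RAD21 degradation, beside 6.66% higher and 6.35% lower among all genes. At 24 h against 0 h 0 rose and 17 fell, beside 7.16% of all genes called lower, and all 34 had a negative difference, with a median of -0.19. The largest falls were those of Ccne2, a G1/S cyclin, by 0.74 and Cdc6, a replication licensing factor, by 0.54 (limma adjusted p 0.0129 and 0.00198). The 32 mitotic genes had 13 positive and 19 negative differences in that comparison, and the difference between the lists was not tested.

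After CTCF loss 5 of the 34 G1/S genes fell and 2 rose at 12 h, beside 8.40% of all genes lower and 9.39% higher. At 24 h 13 fell and 0 rose, beside 10.8% lower and 11.7% higher, and 8 of the 34 had a positive difference. Rfc3, a clamp loader subunit, was 0.52 lower and Rrm2, a ribonucleotide reductase subunit, 0.49 lower at 24 h (limma adjusted p 0.00829 and 0.000559). Among 50 further mitotic genes 3 rose and 9 fell at 12 h, and 5 rose and 5 fell at 24 h, with all genes at the same shares as for the G1/S list. Pttg1, the securin that the APC/C destroys, fell by 0.55 at 12 h and Cdc25b, a CDK-activating phosphatase, by 0.59 at 24 h (limma adjusted p 0.00457 and 0.00328). Ube2s, the second conjugating enzyme of the APC/C, fell by 0.54 at 12 h and 0.61 at 24 h (limma adjusted p 0.00125 and 0.000562), and was the single one of 15 further APC/C genes called at either time.

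The list of 21 inhibitors of the cell cycle and G2 arrest genes moved both ways at 12 h in CTCF AID cells. Among all genes 8.40% were lower and 9.39% higher there. Gadd45b fell by 0.88, while Cdkn2b, a CDK4 and CDK6 inhibitor, rose by 0.91 and Sesn2 by 0.54 (limma adjusted p 0.0068, 0.0283 and 0.000719). Cdkn1a, a CDK inhibitor, fell by 0.73 in CTCF AID cells, by 0.76 in serum and by 0.83 in oectrl with IAA (limma adjusted p 0.000238, 0.00284 and 1.81e-07). After 12 h of RAD21 degradation Cdkn1a fell by 0.30 (limma adjusted p 0.00818) while Gadd45a, a G2 arrest gene, rose by 0.83 (limma adjusted p 0.0121). With the Chd4 hairpin 33 of 50 further mitotic genes fell and 8 rose, 26 of 34 G1/S genes fell and 3 rose, and 13 of 23 regulators fell and 5 rose, beside 33.8% lower and 33.5% higher among all genes. Pttg1 fell by 1.88 and Uhrf1, a factor of DNA methylation maintenance in S phase, fell by 1.49, while Btg2, an antiproliferative gene, rose by 2.14 (limma adjusted p 7.04e-06, 1.87e-06 and 1.32e-06). Calls in the list of cell cycle inhibitors and G2 arrest genes went both ways with this hairpin. Cdkn2c, a CDK inhibitor, and Cdkn2a were lower (log2 differences -3.48 and -1.37), and Ccng1 was higher (1.06).

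**Figure D5:**
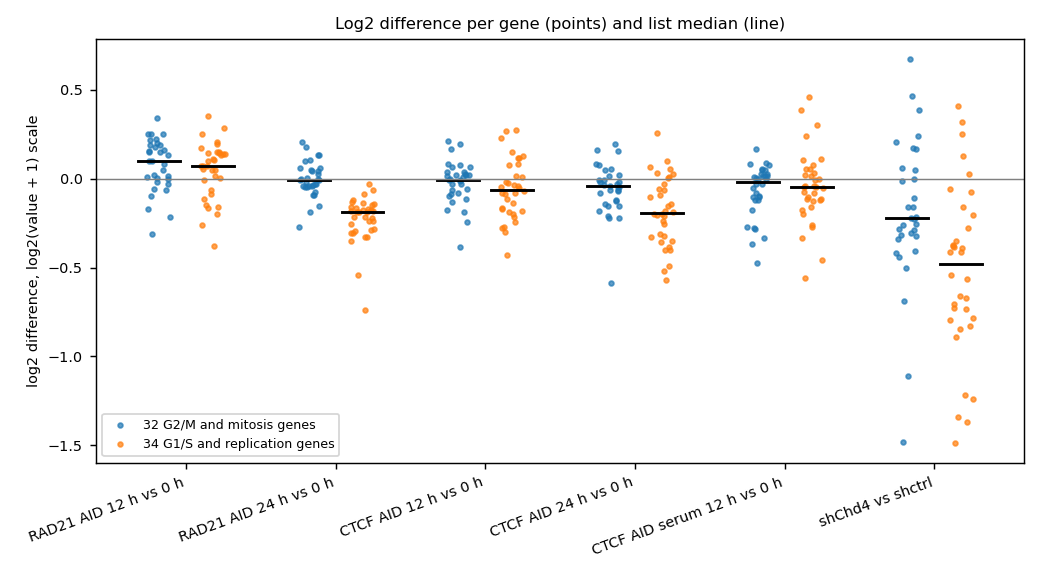
Log2 difference (y axis) of each of the 32 G2/M and mitosis genes (blue) and of 34 G1/S and replication genes (orange) in 6 comparisons (x axis), with black lines at the list medians. At 24 h of RAD21 degradation the G1/S points all lie below 0 with a median of -0.19, while the mitotic genes are centred on -0.01.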

How the data were processed

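RNA-seq of 32 libraries in 16 groups of 2 was used. The values are normalised counts (a signal per gene) as deposited by the authors in 5 tables, 1 for each experiment. The submitters' processing notes name Trim Galore, Bowtie2, STAR, RSEM, DESeq2 and the build mm10, without roles. The annotation and the use of strand are not given in the sources used here. The labels' protocols describe purified mRNA. Whole reads could not be recovered from the values, so no count test was run. The depth is known only as normalised totals, and 1 incomplete line of the CTCF table was dropped.

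Genes with a mean of at least 10 were put on the log2(value + 1) scale and tested by limma (version 3.58.1, R 4.3.3), all groups of a table in 1 fit, with Benjamini-Hochberg adjustment over all genes and a threshold of 0.05. Replicates correlated at r = 0.983 or more across genes. Data were simulated from the 5 tables with a dispersion of 0.01. The test recovered 414 of 495 genes changed by a log2 of 1 (83.6%) and 107 of 499 changed by 0.5 (21.4%). Members were called at differences as small as 0.10, so these rates do not describe them. Groups follow the titles.

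The members and the further lists were chosen with earlier results of these data known. Full statistics are given for the called members with the largest differences, up to 4 higher and 4 lower in a comparison, and at most 2 genes per direction and further list are named. Targeted genes were given for the hairpin, overexpression without IAA, RAD21 degradation against 0 h and 12 h of CTCF degradation. Alternatives were a pseudocount of 10, no filter, a minimum mean of 100, TMM rescaling (the trimmed mean of M values, recomputed here), quantile normalisation, a replicate block, a fit of only the groups compared, groups from the treatment label and leaving out each library. Gene positions and exon lengths come from GENCODE on GRCm38, and promoters from RefSeq.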

Additional observations from a re-analysis of the deposited data

Results flagged for a closer look

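The effect of IAA on Bub1b, the gene of the checkpoint protein BUBR1, differed between mutated CTCF and control cells by 0.22 on the log2 scale (limma interaction term, adjusted p 0.0328), and the call was lost in 7 of 8 fits that left out a library.

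The remaining differences come from tables normalised separately, where both libraries of one experiment moved one way and both of the other the opposite way, and in each case the difference was not tested. Cdk1 was 0.20 higher 12 h after RAD21 degradation and -0.38 after 12 h of CTCF degradation. Nusap1 had values of 0.25 and -0.06, and Ube2c of 0.19 and -0.17, in the same pair of comparisons. At 24 h Ccnb2 had 0.0502 after RAD21 and -0.22 after CTCF degradation. Between CTCF AID cells and the serum condition at 12 h of IAA, Cdk1 had -0.38 and 0.09, and Cenpf 0.0759 and -0.37. Some of these values were small and not called. These were Nusap1 and Cenpf at 12 h of CTCF degradation (limma adjusted p 0.545 and 0.28), Ccnb2 after RAD21 degradation (0.421) and Cdk1 in serum (0.141). The share of all genes that move in opposite ways by this rule was not determined.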

How the results depend on the processing

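None of the 57 named calls changed sign under any alternative. Quantile normalisation turned the balance of calls for IAA with wild-type CTCF from 5 higher and 3 lower to 2 higher and 7 lower, and the sign of the members' median there (0.01 to -0.01), in serum (-0.02 to 0.02) and for mutated CTCF against control (0.00 to -0.02). A pseudocount of 10, a minimum mean of 100 and TMM rescaling kept all 57 calls, no filter lost 2, quantile normalisation 6, the replicate block 3, and a fit of only the groups compared 15 of 44. When the fit held no other groups than those compared, the number of members called was 1 for RAD21 at 24 h against 0 h, 5 and 3 for CTCF at 12 h and 24 h, 1 for IAA with mutated CTCF, and 0 for the mutated-minus-control IAA effect, for wild-type CTCF against control and for mutated CTCF against control. Groups from the treatment label gave 0 for wild-type CTCF against control.

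Replicate numbers do not pair the libraries: deviations of libraries with the same number correlated between -0.0634 and 0.102. The replicate block changed the number called in 1 of 15 comparisons by more than 1.5 times, to 1 for RAD21 at 24 h.

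Leaving out 1 library gave 1 to 3 members called for RAD21 at 12 h, 0 to 1 at 24 h and 4 to 8 from 12 h to 24 h. It gave 1 in every case for CTCF at 12 h, 1 to 2 at 24 h, 0 from 12 h to 24 h, 5 to 6 in serum and 19 to 23 for shChd4. For IAA it gave 3 to 5 in control cells, 4 to 5 with wild-type and 1 to 3 with mutated CTCF, 0 and 0 to 1 for the wild-type and mutated effects minus control, and 0 and 1 to 2 for wild-type and mutated CTCF against control. Of the 57 named calls 25 held in every such fit, 19 were lost in every one and 13 held in some. A fit without a library leaves 1 sample in that group, which is assumed to vary like the others. The share of all genes called was also lower in each such fit than with every library. The counts of these fits are therefore not comparable with the shares given for the full fits. With 2 libraries a group, changes near a log2 of 0.2 lie close to what the test can call.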

Other observations

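Further values of genes in these lists follow, some of them also given above. After 12 h of RAD21 degradation, 3 of 15 further APC/C genes fell and 1 rose, beside 6.35% of all genes lower and 6.66% higher. Cdc16, a core subunit, was 0.32 lower and Fzr1, the G1 activator that takes the place of CDC20, 0.33 higher on the log2 scale. In CTCF AID cells Cdkn2b, a CDK4 and CDK6 inhibitor, was 0.91 higher at 12 h and 1.17 higher at 24 h. With the Chd4 hairpin Cdkn2c, another inhibitor of that family, had a log2 difference of -3.48, while Rb1, the retinoblastoma gene, was 1.31 higher.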
